A study of Homo sapiens with 6 samples.

Results

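The 9 genes described here encode proteins that are known to be removed, or are bound as part of a complex, when the ubiquitin ligase receptor DCAF1 (also called VprBP) is redirected by lentiviral accessory proteins. They are UNG, SMUG1, HLTF, MUS81, EME1, SLX4, SAMHD1, MCM10 and EXO1, and they were taken by name from a table of 21494 genes. The rule that chose them names the proteins and uses no value in the table, although it was set with earlier results of these data known. All 9 had a row, and all 9 passed the filter on low counts. RNA-seq was performed on 6 samples labelled as the human melanoma line G361, 3 with a control shRNA (shControl) and 3 with an shRNA against DCAF1 (shDCAF1), to ask how the transcriptome differs when DCAF1 is depleted. The study's methods describe a single shRNA to the coding region, delivered by lentivirus and followed by puromycin selection, so each group was a selected stable population and nothing in the labels says that the 3 samples of a group came from separate cultures. P-values below therefore measure the spread between these samples, which may be technical. The labels record the genotype of the control samples as WT and give LD611, the name of a bladder carcinoma line, as the source of the cells, beside G361 as the cell line.

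DCAF1 is a substrate receptor of the ligase built on CUL4 and DDB1. It presents proteins to the ligase, which attaches ubiquitin chains and so marks them for the proteasome. The HIV-1 protein Vpr and the related Vpx of HIV-2 and some simian viruses bind DCAF1 and bring it proteins that it would otherwise handle little or not at all, most of them enzymes that act on DNA. This control operates on protein, whereas the values here are RNA levels, and no viral protein was part of the labelled design. Counts are given as normalized counts, that is, estimated read counts rounded to whole numbers and scaled between samples by the upper quartile. They can be compared between samples of a gene but not between genes of different length. A gene was called when edgeR's quasi-likelihood test put its p-value, adjusted by Benjamini-Hochberg, below 0.05 and the fold change exceeded 2. The words "rose" and "fell" mark genes whose adjusted p-value was below 0.05, whatever the fold. All log2 fold changes are shDCAF1 minus shControl.

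The samples held 18195949 to 26883948 estimated counts. DCAF1 itself, at chr3:51395867-51500015, had 789, 961 and 829.7 normalized counts in shControl and 753, 502 and 477 in shDCAF1. The groups did not overlap, but shDCAF1 replicate 1 lay just under the lowest control. The log2 fold change was -0.58 ± 0.17 (SE, n = 3 per group; 95% interval -0.97 to -0.19; edgeR adjusted p = 0.0125), a 1.49-fold reduction, and without replicate 1 of either group it was -0.87. It lost the threshold when samples were scaled by total counts alone (-0.37, edgeR adjusted p = 0.0851). Replicates 2 and 3 lay close together in each group, with a chi-square per degree of freedom of 2.54 in shControl and 2.4 in shDCAF1, against 18.4 to 31.1 for pairs with replicate 1. All were kept as replicates. Markers of the cell types named in the labels were looked up, and the urothelial ones moved with the groups. Of 10 urothelial markers with a row, 9 were tested and 8 were called, 3 up and 5 down, beside 46.4% called over all genes. The basal keratin gene KRT5 had 48190, 63704 and 73688 counts in shControl and 4524, 2582 and 3560 in shDCAF1, and the keratin gene KRT13 had 2740, 4436 and 5317 against 9, 3 and 7. The basal epithelial factor TP63 had 8715, 7670 and 8806 counts in shControl against 9, 8 and 13 in shDCAF1, whereas the luminal factor GATA3 had 7, 1 and 0 against 1580, 1334 and 1873. UPK1B, the largest called decrease of the list, had 500, 641 and 709 counts in shControl and 0 in every shDCAF1 sample. UPK2 fell from 209 to 43.1 normalized counts and KRT7 from 34731.5 to 21361, while PPARG and FOXA1 were called up. Of 8 melanocyte markers, 4 had a row, 2 were tested and 0 were called. The summed normalized counts of the 4 were 197 to 234 in shControl and 242 to 305 in shDCAF1. Both groups thus held few counts of the melanocyte markers measured, which goes against the labelled cell type. Each group held many counts of some urothelial markers, but the sets differed, and several were near 0 in one group. KRT7 had the highest counts of them in shDCAF1, and UPK1A had at most 5 in any sample. The urothelial markers therefore do not give the groups a common cell type. The melanocyte regulator MITF had 162, 154 and 170 counts against 238, 197 and 312, the pigment cell gene PMEL had 28 to 46 counts, and MLANA and TYRP1 had at most 5 in any sample. TYR, DCT, SOX10 and S100B were not analysed here. The share of counts from mitochondrial genes was 1.96% to 1.98% in shControl and 4.1% to 4.48% in shDCAF1. The shRNA and any other difference between the cells of the groups cannot be told apart, and in bulk RNA fewer cells of a kind and less RNA per cell cannot be told apart either.

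Of the 9 genes, SAMHD1 alone was called, as lower in shDCAF1. Over all 16758 genes tested, 46.4% were called, 24.5% up and 22% down. At an adjusted p-value under 0.05 without a fold limit, HLTF, MUS81 and EXO1 rose and SMUG1, EME1 and SAMHD1 fell, which is 6 of 9 genes beside 76.4% of all genes tested (40.4% up and 35.9% down). UNG, SLX4 and MCM10 did not pass. Normalized counts of the groups did not overlap for the same 6 genes, beside 79.5% of all genes. The median absolute log2 fold change was 0.46 over the 9 genes and 0.92 over all genes tested, and 7 of the 9 lay below the median of all genes. Their median log2 fold change was -0.16, against 0.08 for all genes. The share of the 9 genes past either rule was thus not above that of all genes. The exact two-sided permutation test on the normalized counts gave 0.1, the smallest p-value that 3 against 3 samples allow, for the 6 genes without overlap.

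**Figure D1:**
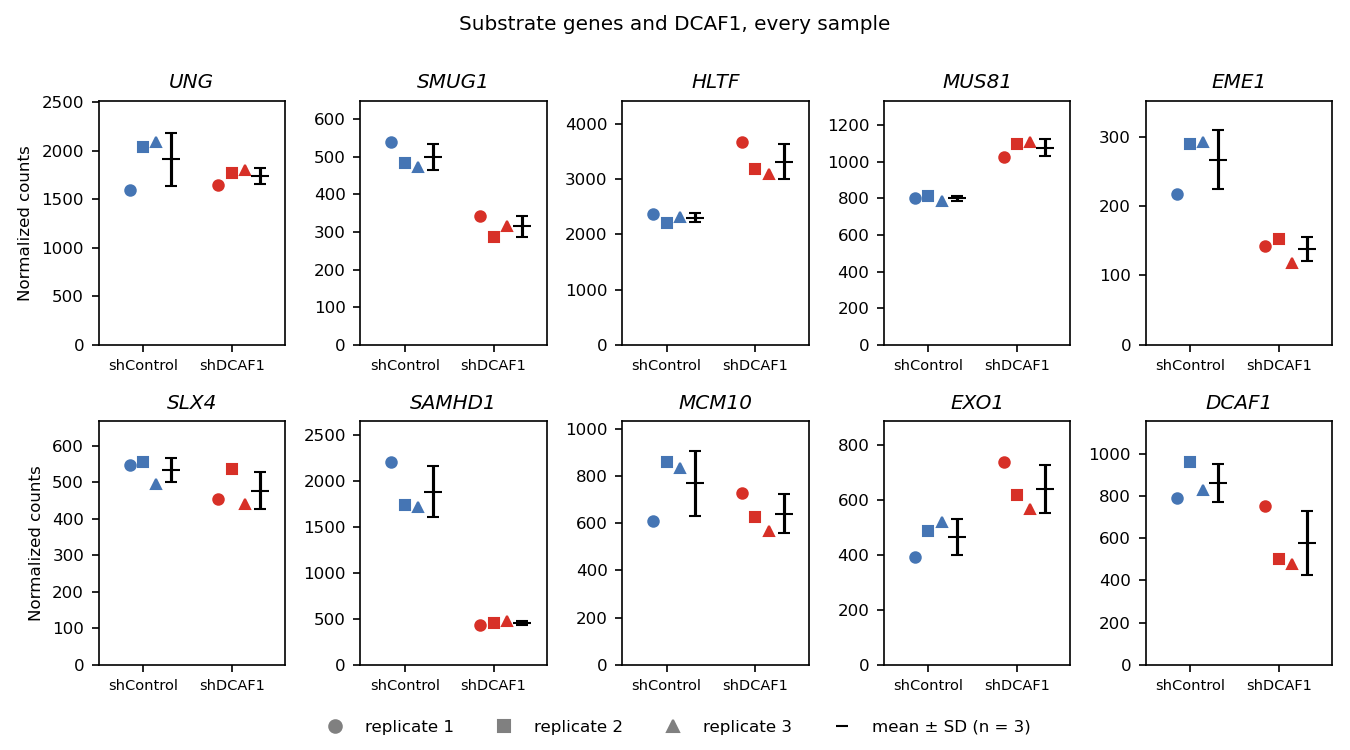
Normalized counts (vertical axes, each from 0) of the 9 genes and DCAF1 in every sample, with shControl on the left and shDCAF1 on the right of each panel, points marked by replicate number and bars for the mean ± SD of 3 samples. The groups stand apart for SMUG1, HLTF, MUS81, EME1, SAMHD1, EXO1 and DCAF1 and overlap for UNG, SLX4 and MCM10.

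**Figure D2:**
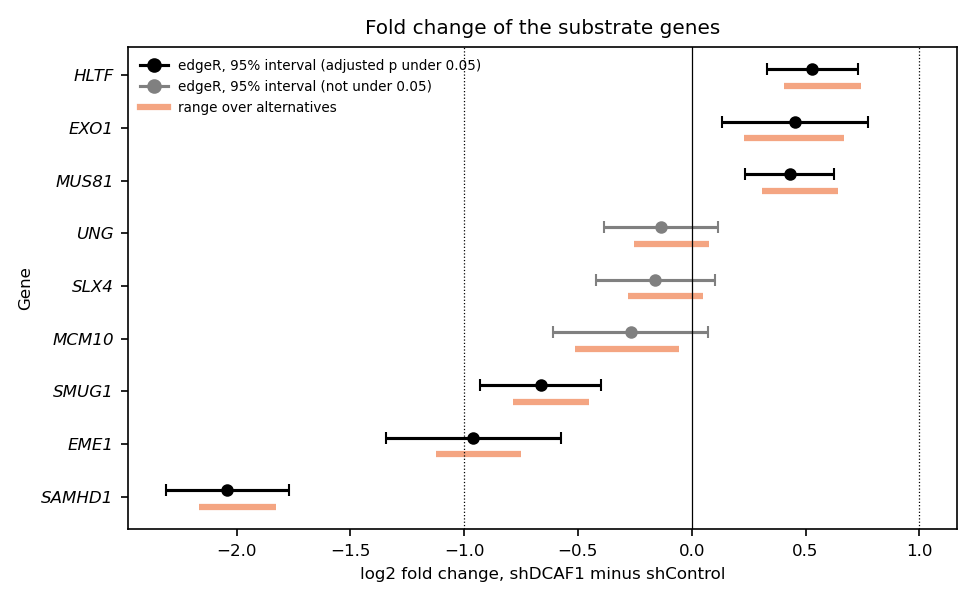
Log2 fold change of each gene (horizontal axis, shDCAF1 minus shControl) from edgeR with its 95% interval, black where the adjusted p-value was under 0.05, above a bar for the range over the alternative settings. Dotted lines mark 2-fold changes, and SAMHD1 at -2.04 is the only gene whose whole interval lies beyond one.

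UNG and SMUG1 are uracil-DNA glycosylases, which cut uracil out of DNA and open base excision repair. UNG, at chr12:109097597-109110992 on the plus strand, makes a nuclear and a mitochondrial enzyme from separate start sites, and its row sums the transcripts of both. The stretches upstream of the start sites are shown because the deposited values cannot separate them. They come from RefSeq on GRCh38.p14, at chr12:109097347-109097596 before the start at 109097597 and at chr12:109097922-109098117 before the start at 109098172. The first lies outside the gene, and the second is intronic for transcripts from the upstream start. Capitals mark letters of an E2F motif (TTTCCCGC, TTTGGCGC, TTTCGCGC or TTTGCCGC, searched on both strands), the motif of the factors that drive many S phase genes.
UNG upstream start: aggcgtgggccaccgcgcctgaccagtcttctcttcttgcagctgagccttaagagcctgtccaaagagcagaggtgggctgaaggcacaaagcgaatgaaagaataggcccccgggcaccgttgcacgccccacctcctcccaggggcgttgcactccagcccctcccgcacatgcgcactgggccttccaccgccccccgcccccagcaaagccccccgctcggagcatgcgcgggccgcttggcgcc
UNG downstream start: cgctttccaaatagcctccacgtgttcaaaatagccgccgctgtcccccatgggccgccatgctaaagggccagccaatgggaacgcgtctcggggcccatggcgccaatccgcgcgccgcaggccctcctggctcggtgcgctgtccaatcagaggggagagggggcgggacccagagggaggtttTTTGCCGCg
The upstream stretch, 68% G and C, held none of the E2F letters, and the downstream one held TTTGCCGC beginning 63 bases before its start site. Such letters occurred in 3.31% of the 35116 RefSeq promoter windows. The downstream window also held the CHR letters (TTTGAA or TTCGAA, either strand, in 16.4% of windows), as well as CCAAT (34.6% of windows). Each window runs 50 bases past its start site, and the upstream window held CCAAT only across the start site, from 2 bases before it, beyond the stretch shown. A match of letters is a description of the window only.

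UNG had 1598, 2043 and 2094 normalized counts in shControl and 1649, 1772 and 1804 in shDCAF1. All 3 depleted samples lay within the range of the controls. The log2 fold change was -0.13 (95% interval -0.38 to 0.12, edgeR adjusted p = 0.292), so that a change of more than 1.5-fold lay outside the interval. The result turned on shControl replicate 1: without that sample the value was -0.25 (edgeR adjusted p = 0.0178), and scaled by total counts alone it was 0.08.

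SMUG1, which removes uracil and oxidized pyrimidines and lies at chr12:54121277-54189008 on the minus strand, fell. It had 540.4, 484 and 474 normalized counts in shControl and 343, 286 and 317 in shDCAF1, with a mean of 499.5 ± 35.7 against 315 ± 28.3 (SD, n = 3). Every depleted sample lay below every control. The fold was 1.59 (log2 fold change -0.66 ± 0.12 SE, edgeR adjusted p = 0.000561). Within each sample the ratio of UNG to SMUG1 counts, which no scaling between samples can move, was 2.96, 4.22 and 4.42 in shControl and 4.81, 6.20 and 5.70 in shDCAF1. The ratio was thus higher in all 3 depleted samples, by 1.46-fold (exact two-sided permutation p = 0.1, the smallest possible). Like the other ratios below, it was chosen after the values had been seen. The SMUG1 row overlaps long noncoding genes on both strands, and counting by strand is not given in the sources used here.

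Among 17 other base excision repair genes, 9 rose and 2 fell, beside 40.4% and 35.9% of all genes. Of these, 4 were called up and 1 down, beside 24.5% and 22%, with a median log2 fold change of 0.37 over the 17. The other thymine and uracil glycosylases differed from each other. TDG had a mean of 928 normalized counts in shControl and 988 in shDCAF1 and did not pass the test (log2 fold change 0.09, edgeR adjusted p = 0.597), with a sign that turned under TMM and DESeq2 scaling and without replicate 1 of either group. MBD4 rose from 668 to 1255 (0.91, edgeR adjusted p = 0.000416). The largest called increase in the list was that of MUTYH, which removes adenine paired with oxidized guanine, from 129 to 524 (2.02, edgeR adjusted p = 8.55e-07), and the largest called decrease that of NEIL2, which removes oxidized pyrimidines, from 596 to 241 (-1.30, edgeR adjusted p = 3.38e-06).

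HLTF is a DNA translocase that reverses stalled replication forks and a ubiquitin ligase for PCNA, the clamp that holds polymerases on DNA. It lies at chr3:149030127-149086554 on the minus strand and rose. It had 2368, 2214 and 2319 normalized counts in shControl and 3682, 3183 and 3095 in shDCAF1. Every depleted sample lay above every control. The means were 2300.3 ± 78.8 and 3319.9 ± 317 (SD, n = 3), a 1.44-fold difference (log2 fold change 0.53 ± 0.09 SE, edgeR adjusted p = 0.000402), and the value stayed between 0.41 and 0.74 over all alternatives. The sequence upstream of HLTF is shown because it was, with UNG and EXO1, among the 3 genes whose promoter windows held E2F letters. It covers chr3:149086555-149086783, read from the minus strand, before the start site at 149086533, and is credited to RefSeq on GRCh38.p14.
HLTF: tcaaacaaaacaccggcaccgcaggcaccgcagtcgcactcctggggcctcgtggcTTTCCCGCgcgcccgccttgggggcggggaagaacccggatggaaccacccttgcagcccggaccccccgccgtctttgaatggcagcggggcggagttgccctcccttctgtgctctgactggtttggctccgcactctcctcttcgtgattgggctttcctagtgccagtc
The capitals, TTTCCCGC, begin 194 bases before the start site. The stretch also held CHR letters (TTTGAA) from 119 bases before it. CCAAT lay on the reverse strand (read as ATTGG) from 44 bases before it. Of all windows, 16.4% held CHR letters and 34.6% CCAAT. In EXO1 the letters TTTCGCGC begin at base 5 counted from, and including, the start site at 241848204, within the exon. Of the 9 genes 8 matched a RefSeq promoter window, with 10 windows in all. The 3 genes with E2F letters did not move alike, since HLTF and EXO1 rose and UNG did not pass.

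The closest relative of HLTF, SHPRH, went the other way, from 614 ± 36.3 to 438 ± 76.2 normalized counts (SD, n = 3; log2 fold change -0.49, edgeR adjusted p = 0.00814). It lost the threshold when scaled by total counts alone (-0.28, edgeR adjusted p = 0.0946) and with replicates 2 and 3 summed (-0.43, edgeR adjusted p = 0.0724). PCNA did not pass the test (-0.05, edgeR adjusted p = 0.713), but did without shControl replicate 1 (-0.18, edgeR adjusted p = 0.0382). Among 16 other genes of fork reversal and damage tolerance, 6 rose and 4 fell, beside 40.4% and 35.9% of all genes. Of these, 4 were called up and 2 down, beside 24.5% and 22%, with a median of 0.10 over the 16. POLH, the polymerase that copies past ultraviolet lesions, had 258, 272 and 341 counts in shControl and 975, 938 and 1156 in shDCAF1 (1.68, edgeR adjusted p = 7.53e-07). UBE2V2, a partner of the enzyme that builds polyubiquitin on PCNA, fell from 1825 to 840.1 normalized counts (-1.12, edgeR adjusted p = 1.66e-05).

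MUS81 and EME1 form a nuclease that cuts branched DNA at stalled forks, and SLX4 is the scaffold that docks it beside other nucleases. The catalytic subunit and its partner moved in opposite directions. MUS81, at chr11:65857126-65867653, had 803, 811 and 787 normalized counts in shControl and 1027, 1098 and 1111 in shDCAF1. EME1, at chr17:50373220-50381483, had 218, 289 and 293 in shControl and 143, 152 and 118 in shDCAF1. Neither gene showed overlap between the groups. MUS81 rose 1.35-fold (log2 fold change 0.43 ± 0.09 SE, edgeR adjusted p = 0.00129). EME1 fell by 1.95-fold (-0.96 ± 0.17 SE, 95% interval -1.34 to -0.58, edgeR adjusted p = 0.000574), just short of the 2-fold limit. It passed that limit with edgeR's TMM factors, with DESeq2, without shControl replicate 1, without shDCAF1 replicate 2 and without replicate 1 of both groups. SLX4, at chr16:3581181-3611606, had 547, 555 and 495 normalized counts against 453, 535 and 441, and its groups overlapped (-0.16, 95% interval -0.42 to 0.10, edgeR adjusted p = 0.230). Scaled by total counts alone, its value was 0.05.

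Within each sample, MUS81 had 3.68, 2.80 and 2.69 counts for each count of EME1 in shControl and 7.20, 7.21 and 9.38 in shDCAF1. The mean ratio was 3.06 ± 0.545 against 7.93 ± 1.26 (SD, n = 3), and the lowest depleted sample stood far above the highest control. The difference was 2.599-fold, or 1.38 on the log2 scale, with a range of 1.25 to 1.52 when each sample was left out in turn (exact two-sided permutation p = 0.1, the smallest possible). The ratio of MUS81 to SLX4 was 1.47, 1.46 and 1.59 in shControl and 2.27, 2.05 and 2.52 in shDCAF1, a 1.51-fold difference (exact two-sided permutation p = 0.1). Both genes of the nuclease overlap highly counted genes on the opposite strand. LRRC59, which overlaps EME1, fell from 7151 ± 296 to 3738 ± 106 normalized counts (log2 fold change -0.94, edgeR adjusted p = 2.5e-06), close to the change of EME1. CFL1, which overlaps MUS81, fell from 30385 ± 391 to 20931 ± 581.5 (-0.54, edgeR adjusted p = 9.41e-05), against the change of MUS81. If reads were not counted by strand, reads of these pairs cannot be told apart, and the part of LRRC59 in the EME1 value was not tested.

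**Figure D3:**
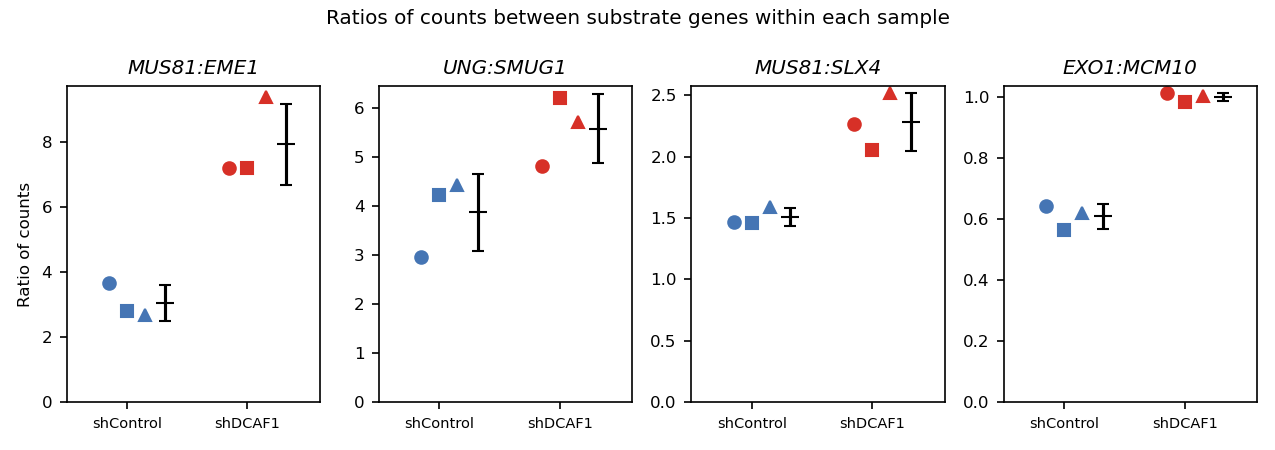
Ratio of read counts between pairs of the genes within each sample (vertical axes, from 0, no unit), with shControl on the left and shDCAF1 on the right of each panel, circles, squares and triangles for replicates 1, 2 and 3, and bars for the mean ± SD of 3 samples. In each of the 4 pairs the 3 depleted samples lie above the 3 controls, with the largest fold for MUS81 to EME1.

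All 10 other structure-specific nuclease genes passed the test, 5 up and 5 down, beside 76.4% of all genes tested. Of these 10, 1 was called in each direction, beside 24.5% called up and 22% down over all genes. EME2, the alternative partner of MUS81, rose while EME1 fell, with 284, 375 and 385 counts in shControl and 701, 750 and 1142 in shDCAF1 (log2 fold change 1.15, edgeR adjusted p = 1.22e-05). EME2 too overlaps protein-coding genes on the opposite strand, MRPS34 and SPSB3, and their part in its value was not tested. ERCC4, the catalytic subunit of another SLX4-bound nuclease, fell from 372 ± 27.3 to 96.6 ± 1.7 normalized counts (-1.94, edgeR adjusted p = 7.63e-07). GEN1, a Holliday junction resolvase, rose from 520 to 794 (0.61, edgeR adjusted p = 0.000829). The SLX4-bound nuclease SLX1 is encoded by near-identical copies, whose reads can be split between rows, so their values are uncertain. SLX1A had a log2 fold change of -0.67 and SLX1B of -0.73 (edgeR adjusted p = 5.93e-05 and 0.00166).

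SAMHD1 showed the largest change of the 9 genes. Its product hydrolyzes deoxynucleoside triphosphates, limits reverse transcription in resting and myeloid cells, and is the target of Vpx. SAMHD1, at chr20:36890229-36951893 on the minus strand, had 2209.6, 1737 and 1714 normalized counts in shControl and 438, 461 and 475 in shDCAF1. The depleted samples lay within a narrow band far below the controls, and among the controls replicate 1 was the highest. The means were 1887 ± 279.8 and 458 ± 19.0 (SD, n = 3), a 4.12-fold reduction (log2 fold change -2.04 ± 0.12 SE, 95% interval -2.31 to -1.77, edgeR adjusted p = 2.82e-07). It was called under all 15 alternative fits, with values from -2.16 to -1.83, and against a null of a 2-fold change (glmTreat adjusted p = 6.73e-06). Of all genes tested, 24.4% had a larger absolute change. The overlapping gene TLDC2 on the opposite strand averaged 5.26 normalized counts in shControl and 1.53 in shDCAF1.

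Other genes of deoxynucleotide metabolism moved in both directions. Of 15 without SAMHD1, 5 rose and 6 fell, beside 40.4% and 35.9% of all genes. Calls were 1 up and 3 down, beside 24.5% and 22%, with a median of -0.01. RRM2, the small subunit of the ribonucleotide reductase that makes deoxynucleotides, had 1196, 1590 and 1860 counts in shControl and 7447, 7100 and 9680 in shDCAF1. It rose from 1610 ± 206 to 7627 ± 522 normalized counts (SD, n = 3; log2 fold change 2.24, edgeR adjusted p = 9.37e-08). ADA, which deaminates adenosine and deoxyadenosine, had 7832, 7203 and 8259 counts in shControl and 393, 516 and 752 in shDCAF1 (-3.99, edgeR adjusted p = 5.96e-09). The other ribonucleotide reductase genes of the list, named after their values were seen, went against RRM2. RRM1 fell from 5259 to 3429 normalized counts (-0.62, edgeR adjusted p = 0.000275). RRM2B fell from 1153 to 445 (-1.37, edgeR adjusted p = 4.22e-06). The shDCAF1 samples thus had lower normalized counts of SAMHD1, ADA, RRM1 and RRM2B and higher ones of RRM2.

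**Figure D4:**
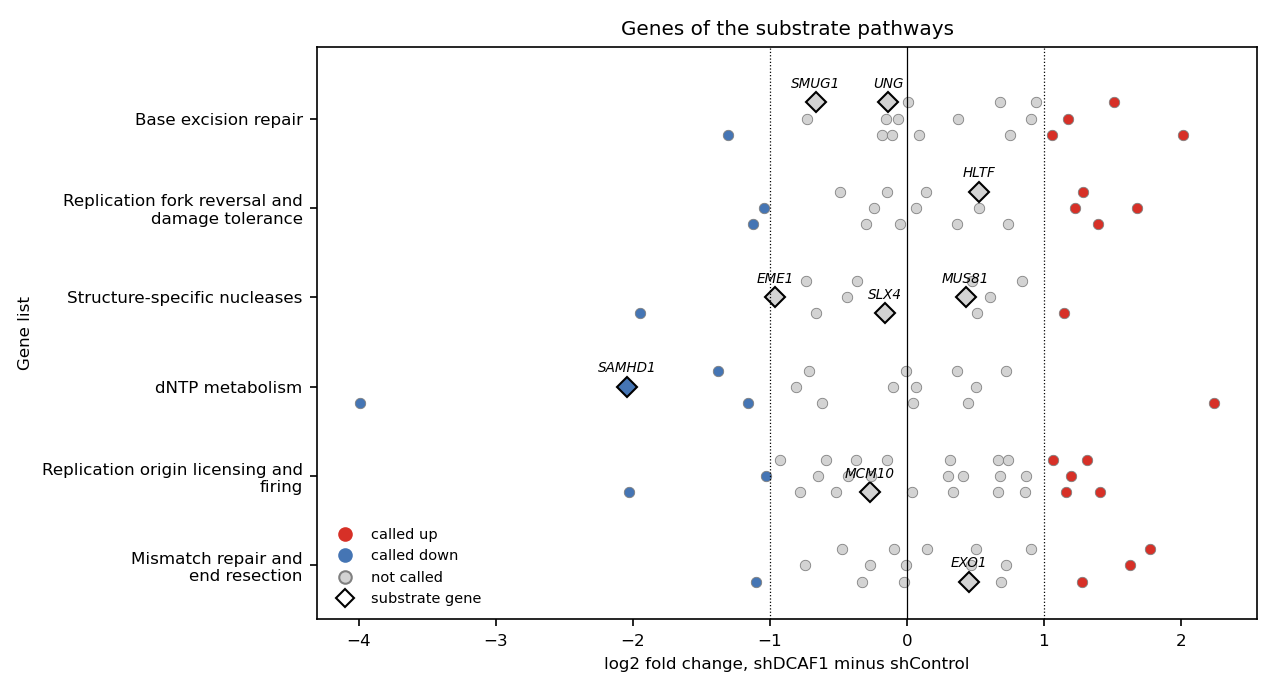
Log2 fold change (horizontal axis, shDCAF1 minus shControl) of every tested gene in the 6 lists around the 9 genes, colored by call, with the 9 genes as diamonds and dotted lines at 2-fold. Each list holds genes on both sides of 0, and SAMHD1 is the only diamond beyond a dotted line.

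SAMHD1 is also an interferon-induced gene, and most of 19 other interferon-induced genes were lower. Of these 12 fell, all of them called, and 3 rose, 2 of them called, beside 22% and 24.5% called over all genes, with a median log2 fold change of -1.55. Genes that fell included MX2, which restricts HIV-1 at nuclear entry, with 1084, 806 and 912 counts in shControl and 27, 34 and 31 in shDCAF1 (-5.08, edgeR adjusted p = 3.87e-08). IRF7, which amplifies interferon production, had 9, 1 and 2 counts in shControl and 519, 849 and 1126 in shDCAF1 (edgeR adjusted p = 1.51e-07). BST2, which tethers budding virions and was named after its value was seen as the other gene called up, had 43, 16 and 18 counts against 2784, 3517 and 4767. The list was therefore not lower as a whole. Its summed normalized counts without SAMHD1 were 35219, 21129 and 21025 in shControl and 14679, 16323 and 16332 in shDCAF1, so that shControl replicate 1, the highest control for SAMHD1, was also the highest for the list. Without that sample 9 genes were called down, and without replicate 1 of both groups 8 were. None of the RefSeq windows of the 9 genes, SAMHD1 included, held the interferon response letters GAAANNGAA on either strand, which 8.11% of all windows did.

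By Pearson correlation of log2(normalized counts + 1) over the 6 samples, the genes most like SAMHD1 were MFHAS1 (r = 0.99976), MAVS (0.99972) and ADM (0.9997). MAVS, the adaptor of cytosolic RNA sensing, had 6598 ± 623 normalized counts in shControl and 2593 ± 107 in shDCAF1. ADM, which encodes the vasodilator peptide adrenomedullin, had 1969 ± 398 against 261 ± 5.48. In all, 1371 genes had an r over 0.99. The points are 2 groups of 3 samples, so any gene that is lower in shDCAF1 and steady within groups scores high.

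**Figure D5:**
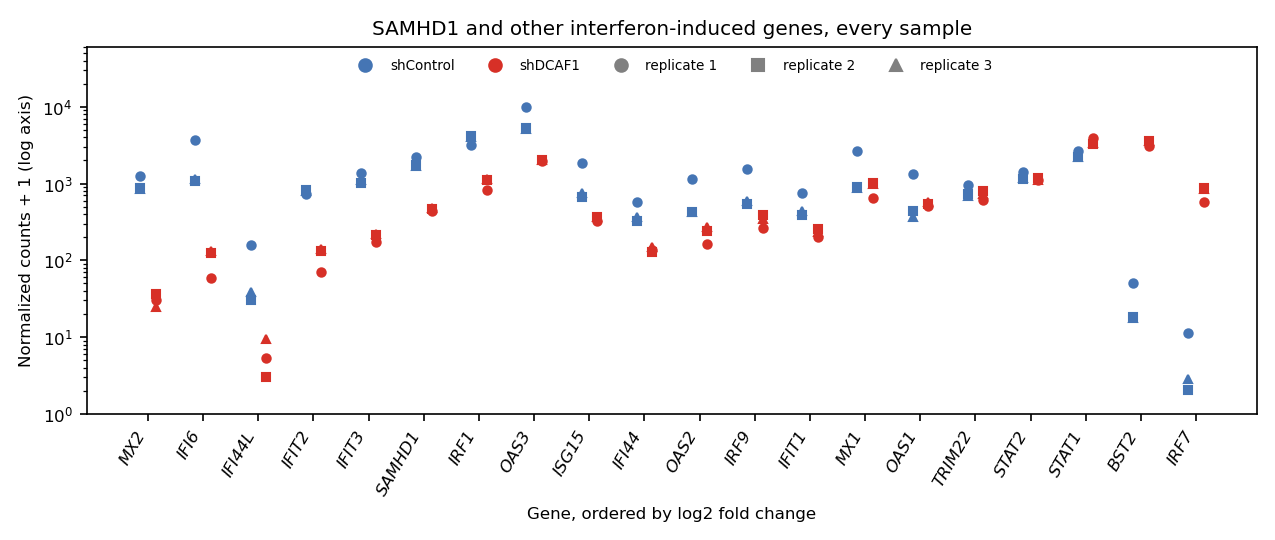
Normalized counts + 1 (vertical log axis) of SAMHD1 and 19 other interferon-induced genes in every sample, ordered by log2 fold change, with shControl and shDCAF1 in separate colors. SAMHD1 and most others have shDCAF1 below shControl, while IRF7 and BST2 have it far above.

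MCM10 and EXO1 act in DNA synthesis, MCM10 in activating the replicative helicase and EXO1 as the exonuclease of mismatch repair and end resection. MCM10, at chr10:13161558-13211110, had 611, 859.9 and 835 normalized counts in shControl and 728, 624 and 566 in shDCAF1. EXO1, at chr1:241847967-241895148, had 392, 485 and 519 in shControl and 737, 615 and 568 in shDCAF1. The groups overlapped for MCM10 and not for EXO1. MCM10 did not pass the test (log2 fold change -0.27, 95% interval -0.61 to 0.07, edgeR adjusted p = 0.133), whereas EXO1 rose 1.37-fold (0.46 ± 0.14 SE, 95% interval 0.13 to 0.78, edgeR adjusted p = 0.0151).

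In both genes replicate 1 stood apart and in opposite senses in the groups. On the log2 scale, shControl replicate 1 lay 0.31 below its group mean for MCM10 and 0.24 below for EXO1, while shDCAF1 replicate 1 lay 0.20 and 0.21 above its own. In a list of 18 proliferation genes replicate 1 was likewise the lowest control and the highest depleted sample, with summed normalized counts of 54889, 64011 and 63523 in shControl and 62654, 52888 and 52522 in shDCAF1. The part of that difference in the values of these genes was not tested. Leaving out replicate 1 of both groups was a setting added after the data had been seen. MCM10 then passed (-0.51, edgeR adjusted p = 4.19e-06), and the change of EXO1 shrank to 0.23 (edgeR adjusted p = 0.0123). The samples left in that fit lay close together (chi-square per degree of freedom 2.54 in shControl and 2.4 in shDCAF1). Its small p-values may therefore measure technical spread. MCM10 also passed without shControl replicate 1 (-0.41, adjusted p = 0.0163), without shDCAF1 replicate 1 (-0.37, adjusted p = 0.0490), with TMM factors (-0.36, adjusted p = 0.0473) and with DESeq2 (-0.39, adjusted p = 0.0252). In all it passed in 5 of 15 alternative fits. With the close samples of each group summed as 1 sample beside replicate 1, MCM10 did not pass (-0.16, edgeR adjusted p = 0.498). The ratio of EXO1 to MCM10 counts within a sample was less affected. It was 0.642, 0.565 and 0.621 in shControl and 1.01, 0.985 and 1.00 in shDCAF1, a 1.64-fold difference (exact two-sided permutation p = 0.1, the smallest possible), and stayed between 0.66 and 0.76 on the log2 scale when each sample was left out.

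Among 27 other genes of origin licensing and firing, 13 rose and 9 fell, beside 40.4% and 35.9% of all genes. Calls were 5 up and 2 down, beside 24.5% and 22%. MCM2, a subunit of the helicase that MCM10 helps to activate, fell from 6495 ± 488 to 1592 ± 180 normalized counts (log2 fold change -2.03, edgeR adjusted p = 1.35e-07). CDC45, which joins the same helicase, rose from 672 to 1122 (0.74, edgeR adjusted p = 0.000578), as did the checkpoint adaptor CLSPN from 611 to 1626 (1.41, edgeR adjusted p = 2.64e-06). Among 17 other genes of mismatch repair and end resection, 8 rose and 4 fell, with 3 called up and 1 down, beside the same shares. The mismatch repair gene PMS1 rose, as EXO1 did, from 157 to 541 (1.78, edgeR adjusted p = 2.17e-06). The helicase gene WRN fell from 826 to 384 (-1.10, edgeR adjusted p = 9.29e-06). Of the 18 proliferation genes 4 rose and 4 fell, again beside 40.4% and 35.9% of all genes, with a median of -0.10. MKI67 fell from 10853 to 6547 (-0.73, edgeR adjusted p = 0.000544), and E2F2, which encodes an activating E2F factor, rose from 285 to 1469 (2.37, edgeR adjusted p = 2.81e-08).

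Compared per length, as CPM (counts scaled to the total of each sample) per kilobase of exon, the order of the 9 genes in shControl was HLTF at 16.3 ± 0.46, UNG at 15.5 ± 2.36, SAMHD1 at 7.41 ± 1.01, MUS81 at 6.26 ± 0.101, MCM10 at 6.01 ± 1.13, EXO1 at 4.8 ± 0.723, SMUG1 at 3.53 ± 0.213, EME1 at 3.45 ± 0.58 and SLX4 at 2.25 ± 0.13 (SD, n = 3). The SDs of HLTF and UNG overlapped, as did those of MUS81 and MCM10, of MCM10 and EXO1, and of SMUG1 and EME1, so these neighbors were not separated. The SD of SAMHD1 also overlapped that of MCM10, so these were not separated either. In shDCAF1 the order was HLTF at 27.2 ± 2.8, UNG at 16.3 ± 0.655, MUS81 at 9.77 ± 0.344, EXO1 at 7.64 ± 1.1, MCM10 at 5.79 ± 0.786, SMUG1 at 2.58 ± 0.243, SLX4 at 2.33 ± 0.251, SAMHD1 at 2.09 ± 0.0711 and EME1 at 2.06 ± 0.27. There the SDs of SMUG1, SLX4, SAMHD1 and EME1 overlapped from each to the next, as did those of EXO1 and MCM10. SAMHD1 thus went from the third place to the eighth. The order depends on the length used. By the canonical transcript, SAMHD1 went from the third place to the seventh, with 4.86 ± 0.166 in shDCAF1, clear of the SDs of SLX4 and EME1 below it and SMUG1 above it. By that length, which for UNG is much shorter than its summed exons, UNG came first with 39.8 ± 6.06 in shControl and HLTF second with 18.4 ± 0.521. The counted UNG row ends at 109110992, whereas the GENCODE 44 gene that gave its summed exons ends at 109126725. The value of UNG per summed exons, and its place below HLTF, are therefore uncertain.

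The core of the ligase held members that moved each way. Of 7 core genes, DCAF1 among them, 2 rose and 3 fell, beside 40.4% and 35.9% of all genes. Calls were 1 in each direction, beside 24.5% up and 22% down. The cullin CUL4B rose from 1532 ± 152 to 3295 ± 557 normalized counts (log2 fold change 1.10, edgeR adjusted p = 3.3e-05), and NEDD8, the modifier that activates cullins, fell from 3097 ± 341 to 1453 ± 44.2 (-1.09, edgeR adjusted p = 4.65e-06). Of 12 other proteins known as substrates of the same ligase or of its viral complexes, 5 genes rose and 5 fell. Calls were 2 in each direction, and the shares over all genes are those just given. TET2, an enzyme that oxidizes methylated cytosine, had 221, 267 and 357 counts in shControl and 1252, 1395 and 1838 in shDCAF1 (2.26, edgeR adjusted p = 1.31e-07). The nuclear receptor gene RORA had 757, 613 and 755 counts in shControl and 1, 6 and 12 in shDCAF1 (edgeR adjusted p = 4.16e-08). Over the 121 genes of the repair, replication, deoxynucleotide, ligase and substrate lists, leaving out the 9 genes, 34 were called, 21 up and 13 down, with a median of 0.09, beside 46.4% called over all genes. Scaled by total counts alone, 27 were called up and 6 down.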

How the data were processed

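RNA-seq of 3 shControl and 3 shDCAF1 samples was analyzed, grouped by the sample titles. The authors used STAR for alignment to hg38 and Partek Flow for quantification, and the deposited values are estimated counts (expected counts) per gene and sample, without normalization or pooling. Whole numbers make up 59.4% of them. The labels name a SMARTER kit and the study's methods a strand-specific KAPA kit, and counting by strand is not given in the sources used here. Totals were 18195949 to 26883948, and 3 counts, taken as the detection limit, equal 2.28 to 3.44 normalized counts (counting error only).

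The 9 genes and all lists were chosen with earlier results of these data known. The design had been written for counts. The estimated counts were rounded to whole numbers and fitted with edgeR 4.0.16 in R 4.3.3 (quasi-likelihood test, upper quartile factors, quantile 0.75, filterByExpr with a minimum count of 10, group as the only term), which left 16758 genes, with Benjamini-Hochberg adjustment over all of them. This stands in for Partek's Gene Specific Algorithm. Tested on simulated data for this comparison with 16358 genes, edgeR recovered 98.5% of 200 genes changed by 2 on the log2 scale, with 6 false calls. The simulation held as many increases as decreases, all of that size. It did not test changes near 2-fold, or scaling where 46.4% of genes are called. Genes named are the 9 genes and DCAF1, the largest called increase and decrease of each list (mean of 100 or more normalized counts in the group with the higher level), fixed partners of the 9 genes (some not reported here), fixed markers, and the 3 genes most like SAMHD1. Same-numbered samples did not deviate together (correlations of -0.145, -0.0293 and -0.106), so the numbers were not taken as pairs. Gene overlaps and lengths came from GENCODE 44, and promoter windows of 300 bases from RefSeq, in which SMUG1 had no match. Alternatives were TMM factors, total counts alone, DESeq2 1.42.0, limma-voom (limma 3.58.1), no filter, a replicate block, a filter of 10 or more counts in all samples, glmTreat against 2-fold, leaving out each sample, replicates 2 and 3 summed, and, added after the data had been seen, leaving out replicate 1 of both groups.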

Additional observations from a re-analysis of the deposited data

How the results depend on the processing

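SMUG1, HLTF, MUS81, EME1 and SAMHD1 kept their direction and an adjusted p-value under 0.05 in all 15 refits. The number of the 9 genes called was 2, all of them down, with TMM factors, with DESeq2 and without replicate 1 of both groups, and 1 to 2 when each sample was left out, EME1 being the second each time. With at least 10 counts in every sample 4690 genes were called, 2694 up and 1996 down, and 1 interferon-induced gene was called up, since that filter removes genes that are near 0 in a group. Leaving out each sample gave 7950 to 8142 called genes, 4063 to 4239 up and 3755 to 3985 down. In the pathway and ligase lists glmTreat, by its stricter null, called 20 genes, 6 of them down, and scaling by total counts alone called 6 down. That scaling moved the median of all genes from 0.08 to 0.29 (log2), against -0.01 with TMM and -0.04 with DESeq2, so changes near 0 depend on it: UNG became 0.076, SLX4 0.0514 and PCNA 0.16, and DCAF1 -0.37 (adjusted p = 0.0851). With replicates 2 and 3 summed, DCAF1 was -0.46 (adjusted p = 0.0839). TDG became -0.0074 with TMM, -0.0308 with DESeq2 and -0.17 (edgeR adjusted p = 0.0155) without replicate 1 of both groups, and ranged from -0.05 to 0.18 with each sample left out. PCNA ranged from -0.18 to 0.0173 (without shControl replicate 2). The cause was not tested. With the replicate block 7686 genes were called, 4032 up and 3654 down. EXO1, which was called in neither fit, kept its size (0.46) but not an edgeR adjusted p-value under 0.05 (0.0527). It was the only named gene whose side of that threshold the block changed.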

Other observations

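The genes overlapping the 9 genes, looked up by position, add values that belong to no comparison above. LINC02381, a long noncoding gene within the SMUG1 locus, averaged 392 ± 61.3 normalized counts in shControl and 3.65 ± 0.790 in shDCAF1 (SD, n = 3; edgeR adjusted p = 1.71e-08). GYG1, which encodes the primer of glycogen synthesis and overlaps HLTF on the opposite strand, fell from 961 ± 59.3 to 806 ± 52.0 (log2 fold change -0.25, edgeR adjusted p = 0.0371) while HLTF rose. EFEMP2, which encodes an extracellular matrix protein and overlaps MUS81 on the opposite strand, fell from 72.0 ± 9.42 to 29.1 ± 5.73 (-1.32, edgeR adjusted p = 0.000959) while MUS81 rose. These genes were named after their values were seen.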
